A study of Drosophila melanogaster with 4 samples.

Results

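The regions described here are the TCF peaks of the X chromosome of Drosophila melanogaster embryos. They are all peaks of the deposited list that carry X as their sequence name, which gave 479 of 4589 peaks (10.4%). They covered 302 kb, or 9.36% of the bases covered by the whole list. Peaks were joined into groups wherever the gap from the end of one to the start of the next was at most 5000 bp. The experiment was a ChIP-seq, in which an antibody pulls a protein with its bound DNA out of cross-linked chromatin and the DNA is sequenced. Both ChIP libraries and both input libraries came from whole embryos labelled 0 to 8 h, with sex given as unknown. The input is chromatin DNA taken without the antibody. The collection protocol of all 4 samples instead speaks of an egg laying of 8 to 16 h, which begins where the labelled stage ends, so the age of the embryos behind every value below is in doubt. All libraries share the strain Y cn bw sp. Its genotype carries y[1] and oc[R3.2] on X. It also carries the eye and body colour mutations cn[1], bw[1] and sp[1], the taste receptor alleles Gr22d[1] and Gr22b[1], CG33964[R4.2], Rh6[1] and GstD5[1], and further MstProx[1], LysC[1] and lab[R4.2]. The antibody was a crude rabbit polyclonal serum against the N-terminus of TCF. A single list stands for all libraries, so no value below has a replicate error and no test was made.

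TCF, the product of the gene pangolin, is the DNA-binding protein through which Wingless (the fly Wnt) acts on genes. Without the signal it represses targets together with Groucho, and with the signal it binds Armadillo, the fly beta-catenin, and activates them. In embryos the pathway sets up segment polarity and patterns the gut, heart and nervous system. Several genes of Wnt signalling in a wider sense are X-linked in the RefSeq gene table. They are arm, which encodes Armadillo, dsh, an adaptor below the receptors, and sgg, the kinase that marks Armadillo for destruction. The others are por, needed to secrete Wnt proteins, the ligand gene Wnt5 and the receptor gene fz4. The peaks are on FlyBase release 5 and the gene table on release 6, so no peak was assigned to a gene and positions are given as coordinates only. X coordinates run from the telomere towards the centromere.

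TCF peaks on X were denser in 3 stretches than elsewhere on the chromosome. The stretches were 0 to 1 Mb with 37 peaks, 6 to 10 Mb with 130 peaks and 15 to 20 Mb with 155 peaks. Together they held 322 of the 479 peaks (67.2%) on 44.9% of X up to its last peak. Their density was 32.2 peaks per Mb, against 12.8 per Mb elsewhere on X. It was uneven, as windows of 1 Mb inside the stretches went down to 24 peaks, at 15 to 16 Mb. Outside them, the window 4 to 5 Mb held 20. The stretches were drawn after the counts were seen, so the contrast is a description. The first peak began at base 24198 and the last ended at base 22258225. Over this length X had 21.5 peaks per Mb and 1.36% of its bases were covered.

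In windows of 1 Mb the count ran from 5 to 38 peaks over 22 full windows, with a median of 18.5. The fullest window was 8 to 9 Mb with 38 peaks, and the windows 0 to 1 Mb and 9 to 10 Mb followed with 37 each. The windows 17 to 18, 18 to 19 and 19 to 20 Mb had 35 peaks each. In all, 7 windows reached 30 peaks, the remaining one being 7 to 8 Mb with 30, and they held 247 peaks (51.6%). The fewest were 5 peaks at 21 to 22 Mb, 7 at 14 to 15 Mb, 9 at 13 to 14 Mb and 10 at 10 to 11 Mb. Of these poor windows, 21 to 22 Mb and 10 to 11 Mb held single peaks only. The window 10 to 11 Mb had a median score of 43.77, the highest median of the full windows. The poorest end of X was the one nearest the centromere, where the short window from 22 to 22.26 Mb held 1 peak.

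The score in the deposited list has no name. Its values fell on the steps expected if it were -log10 of a Poisson tail for a whole-number pileup of reads. The fit over the whole list gave an expected pileup of 71.7, and 472 of the 479 X scores (98.5%) lay within 0.01 of a step. For these an implied fold over that expectation could be given. Of the remaining 7 X peaks, 5 lay within 0.013 of a step and the other 2 were at least 0.112 away. A single expectation was fitted for all chromosomes, and it was not adjusted for the copies of X, of which males have fewer than females. In whole embryos, fewer cells with TCF bound and weaker binding in every cell cannot be told apart.

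Most X peaks had an implied fold under 3. The median score was 19.37 (interquartile range 12.18 to 38.36), and the median implied fold was 2.24 (1.94 to 2.89). The implied fold was under 2 in 147 of the 472 peaks (31.1%), at least 3 in 107 (22.7%) and at least 5 in 37 (7.84%). The 7 X peaks without a fold are left out of these counts. They scored from 36.97 to 150.16, all above the X median. Those at 150.16 scored above a peak of 147.24 with 5.38-fold. The lowest score on X was 7.38, a pileup of 122 or 1.7 times the expectation, and 2 peaks had it. Median scores on the other arms were 16.26 on 2L, 15.60 on 2R, 15.93 on 3L, 15.93 on 3R and 13.08 on chromosome 4, each below that of X, with no test of the difference. On 2L, 2R, 3L and 3R together, 56 of 3930 peaks (1.42%) scored below 7.38, the lowest score on X. Of the 100 peaks with the highest score in the list, 9 lay on X (9%), and of the 500 highest, 67 (13.4%). X held 10.4% of all peaks of the list.

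By blocks of 5 Mb, medians of score and width differed little beside the spread within each block. From 0 to 5 Mb, 104 peaks had a median score of 20.09 (interquartile range 11.31 to 34.05) and a median width of 494.5 bp. From 5 to 10 Mb, 143 peaks had 18.66 (11.88 to 39.30) and 491 bp. From 10 to 15 Mb, 55 peaks had 16.26 (12.03 to 36.30) and 422 bp. The block from 15 to 20 Mb held the most peaks, 155, with 21.56 (13.08 to 43.61) and 528 bp. In the last block, up to 22.26 Mb, 22 peaks had 18.69 (14.32 to 49.92) and 702.5 bp. The share of single peaks also differed between blocks. They were 41.3% of the peaks from 0 to 5 Mb, 35.7% from 5 to 10 Mb and 74.5% from 10 to 15 Mb. From 15 to 20 Mb they were 49%, and in the last block 90.9%. The 50 highest X scores were spread as 10, 19, 3, 17 and 1 over the 5 blocks.

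The strongest TCF region of X was the peak at 2028292 to 2032111, with a score of 596.98. It was also the widest X peak, at 3820 bp, and a single peak, with 10.8 kb free of peaks before it and 131.3 kb after it. Its implied fold was 12.1 (95% exact Poisson interval 11.3 to 12.9, which here and below covers counting error only). The second, at 1128989 to 1130572, reached 9.16-fold (8.47 to 9.89) and formed a pair with a neighbour 1467 bp away. Beyond it no peak followed for 382.2 kb. The third, at 17986456 to 17987875, reached 9.01-fold (8.32 to 9.73) and stood alone, with 205.4 kb before it and 111.2 kb after it. The fourth, at 17403502 to 17405686, reached 8.89-fold (8.22 to 9.61) within a group of 5. The interval of the first lies apart from the others, and those of the next 3 overlap.

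The rest of the 10 highest scores ranged from 8.03-fold to 7.14-fold. The fifth, at 1977612 to 1978492, was the only one of the 10 under 1000 bp wide, at 881 bp (8.03-fold, interval 7.39 to 8.71). The sixth lay at 15711269 to 15713415 (7.75-fold) and the seventh at 20366101 to 20367649 (7.68-fold). The eighth lay at 17471564 to 17473200 (7.21-fold), the ninth at 8942029 to 8943311 (7.19-fold) and the tenth at 15567907 to 15569086 (7.14-fold). Among the 10, 5 were single peaks and 5 were members of groups. By position, 5 lay between 15 and 18 Mb and 3 between 1 and 3 Mb. Strong sites thus occurred both in the dense stretches and in stretches with few other peaks.

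TCF peaks on X had a median width of 499 bp (interquartile range 321 to 802 bp). The median was 505.5 bp on the 4 large autosomal arms together and 445 bp on chromosome 4. The narrowest X peaks, 10 in number, were 201 bp, which was also the smallest width in the whole list. There were 100 peaks under 300 bp (20.9%), 77 wider than 1000 bp (16.1%), 9 wider than 2000 bp (1.88%) and 3 wider than 3000 bp. After the widest peak came 586716 to 589825 with 3110 bp and 6.62-fold, then 7212451 to 7215471 with 3021 bp and 5.63-fold. The fourth widest, 5894121 to 5896551, spanned 2431 bp at 7.11-fold. The fifth, 662137 to 664339, spanned 2203 bp at only 3.18-fold (interval 2.78 to 3.62). Of the 10 widest peaks, 3 were also among the 10 with the highest score, the first peak and those at 17403502 and 15711269. The remaining 3 were 18191718 to 18193756 (2039 bp, 4.77-fold), 20545782 to 20547815 (2034 bp, 2.34-fold) and 2197101 to 2199012 (1912 bp, 5.73-fold). The ninth widest thus had a score of 21.56, near the median of all X peaks.

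**Figure D1:**
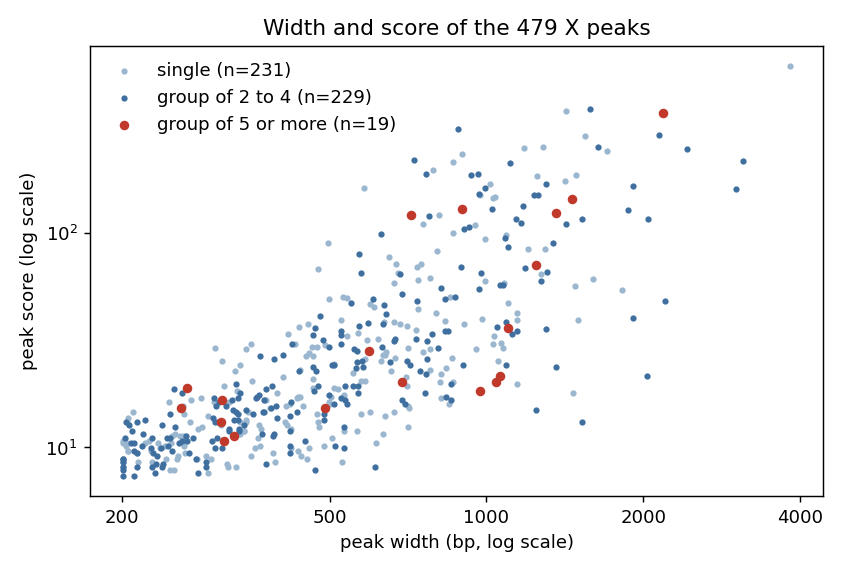
Width in bp (horizontal, log scale) against the authors' score (vertical, log scale) for the 479 X peaks, with 1 point per peak and colours for the size of its group. Score rises with width in each colour, single peaks reach the highest value (596.98 at 3820 bp), and the 19 peaks in groups of at least 5 run from 10.74 to 361.36.

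Wider X peaks scored higher. Spearman's rho was 0.81 over the 479 peaks and 0.58 over the 240 with the higher score. It is given as a description, since the caller takes width and score from the same signal. Peaks under 300 bp had a median score of 10.46 and never exceeded 19.01. Those of 300 to under 500 bp had a median of 15.44, and those of 500 to under 800 bp 27.84. The median was 50.09 from 800 to under 1200 bp, 110.11 from 1200 to under 2000 bp and 216.50 for the 9 peaks of at least 2000 bp. On the 4 large autosomal arms, the same 6 width classes had medians of 9.92, 12.77, 19.37, 36.07, 57.43 and 121.65. X thus had the higher median in each class. The interquartile ranges of X and the autosomal arms overlapped in every class, for example 19.19 to 41.91 and 14.00 to 31.00 at 500 to under 800 bp.

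Joining the 479 X peaks gave 326 groups, and 231 of these held only 1 peak. There were 58 pairs, 23 groups of 3, 11 groups of 4, 2 groups of 5 and 1 group of 9. Single peaks were 48.2% of X peaks, members of groups of 2 to 4 were 47.8% and members of the 3 larger groups were 3.97%. The limit of 5000 bp fell between gaps of 4971 and 4996 bp, which joined their peaks, and gaps of 5201 and 5289 bp, which did not. Groups of at least 2 peaks had a median length of 4.14 kb, and peaks covered 38.5% of their summed length. The longest group spanned 21.3 kb.

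Single peaks and peaks in small groups had similar medians of score and width. Single peaks had a median score of 19.37 (interquartile range 11.88 to 38.36) and a median width of 498 bp (334 to 756). Peaks in groups of 2 to 4 had 18.30 (11.88 to 37.90) and 498 bp (307 to 820). The 19 peaks in groups of at least 5 had 20.09 (15.94 to 96.22) and 717 bp (320 to 1079), but they come from 3 places only. Of the 50 X peaks with the highest score, 18 were single peaks, 27 belonged to groups of 2 to 4 and 5 to the 3 larger groups. These were 7.79%, 11.8% and 26.3% of the peaks of each class, against 10.4% over all X peaks, and the difference was not tested.

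The longest chain of TCF peaks on X lay at 9011891 to 9033200, where 9 peaks spread over 21.3 kb and covered 29.5% of that length. Its strongest peak was the second, at 9014594 to 9015836, with 3.76-fold (interval 3.33 to 4.24). The first reached 2.83-fold and the sixth 2.58-fold, and the remaining 6 lay between 2.09-fold and 2.29-fold. All 9 peaks were thus modest, and the best of them ranked 70 on X by score.

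Both groups of 5 held stronger peaks. The group at 17397843 to 17412794 spanned 14952 bp with 34.6% covered. Its 5 peaks had implied folds of 5.03, 2.34, 8.89, 1.88 and 4.88 in order along X. The strongest, in the middle, was only 47 bp from the peak before it, the smallest gap on X. The group at 8783937 to 8791052 was compact, with 5 peaks in 7116 bp and 58.2% covered. Its folds were 1.91, 4.94, 2.29, 1.99 and 5.33, so that the strong members were the second and the last.

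The 11 groups of 4 ranged from 2546 bp (at 11607906 to 11610451) to 11.3 kb (at 18726220 to 18737539) in length. In the longest of them all 4 peaks were above the X median, with folds of 2.83, 2.79, 5.79 and 4.32 in order along X. The best peaks of 2 neighbouring groups near 6.9 Mb, at 6878864 to 6879825 and 6894487 to 6895718, scored 189.10 and 150.16. The groups at 7194982 to 7201991 and 7212451 to 7217442 were also neighbours, 10.5 kb apart, with best scores of 65.11 and 160.59. In the latter group, a single peak of 3021 bp made up most of the 81.6% covered. At the weak end, the group at 16224696 to 16228728 had scores from 8.10 to 13.69 only. The group at 269422 to 276214, the group of 4 nearest the telomere, had folds of 1.74, 2.52, 1.73 and 2.22 in order.

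**Figure D2:**
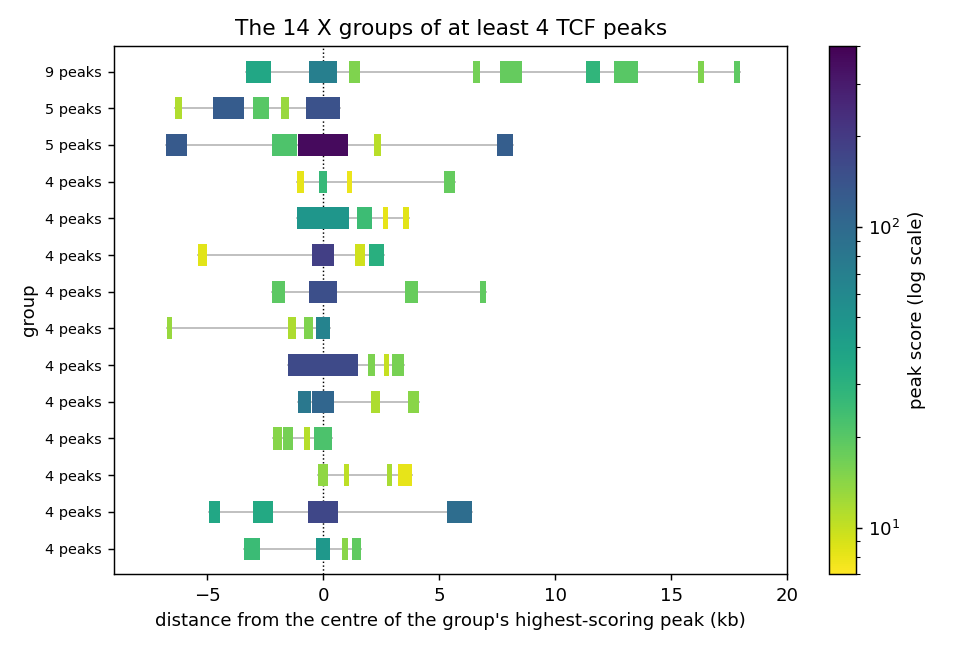
The 14 X groups of at least 4 peaks, 1 per row, with each peak drawn to scale as a box at its distance in kb from the centre of the group's highest-scoring peak and coloured by score (log scale). The group of 9 extends to 1 side of its best peak over most of its 21.3 kb. Each row's darkest box lies at 0 by construction.

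Members of a group differed in strength, with no single layout. In the 58 pairs, the higher-scoring member was the wider one in 54 of the 58 pairs. Scores fell on different sides of the X median, or on it, in 33 pairs, in 12 pairs both lay above it and in 13 pairs both lay below it. Among the 37 groups of at least 3 peaks, the best peak was the first in 8, the last in 10 and between the ends in 19.

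Neighbouring X peaks were a median of 13.7 kb apart (interquartile range 3.14 to 53.0 kb over 478 gaps). Of these gaps, 153 (32.0%) were at most 5000 bp, and their median was 1128 bp. There were 24 gaps under 200 bp and 69 under 1000 bp. At the other end, 71 gaps exceeded 100 kb and 25 exceeded 200 kb.

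**Figure D3:**
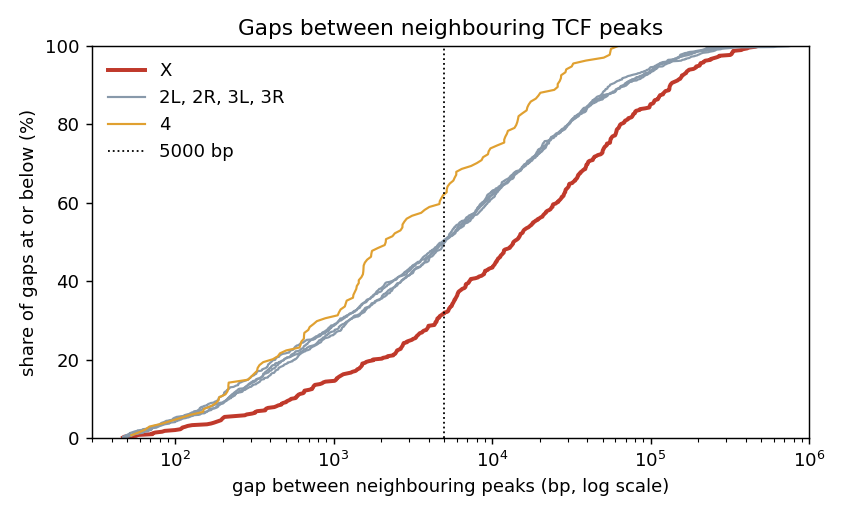
Cumulative share of gaps between neighbouring peaks (vertical, percent) by gap length (horizontal, bp, log scale) for X and the other arms, with a dotted line at 5000 bp. At that line X is at 32.0%, the 4 large autosomal arms lie between 49.8% and 50.6%, and chromosome 4 is at 61.9%.

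Long stretches of X had no called TCF peak. The longest ran for 474.9 kb at 4976579 to 5451458, and the next for 459.4 kb at 19788940 to 20248312. The third, 418.3 kb at 14085038 to 14503304, lay in the sparse middle of the chromosome. Near the centromere, stretches of 406.9 kb (21476259 to 21883162) and 373.7 kb (21883414 to 22257142) were parted by 1 weak peak with a score of 7.86. The stretch of 382.2 kb at 1130573 to 1512747 began directly after the second strongest X peak. Runs without a peak of 332.7 kb (6260616 to 6593285) and 330.5 kb (15046432 to 15376914) lay within the dense stretches described above. The 10 longest stretches, of at least 325 kb each, added up to 3.83 Mb, or 17.2% of X up to the last peak. A missing peak says only that none was called, since the depth of the libraries is unknown.

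At a scale of 100 kb, 68 of 223 windows (30.5%) held no peak, 47 held 1 and 40 (17.9%) held at least 5. Those 40 windows contained 254 of the X peaks (53.0%). The richest was 9000001 to 9100000 with 11 peaks, which include the chain of 9. The windows 600001 to 700000 and 17400001 to 17500000 had 9 each. Their best peaks differed, with scores of 48.06 in the former and 361.36 in the latter. Another 7 windows held 8 peaks. Of those, 3 lay between 8.3 and 9.7 Mb, with best scores of 218.14, 150.16 and 129.30.

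**Figure D4:**
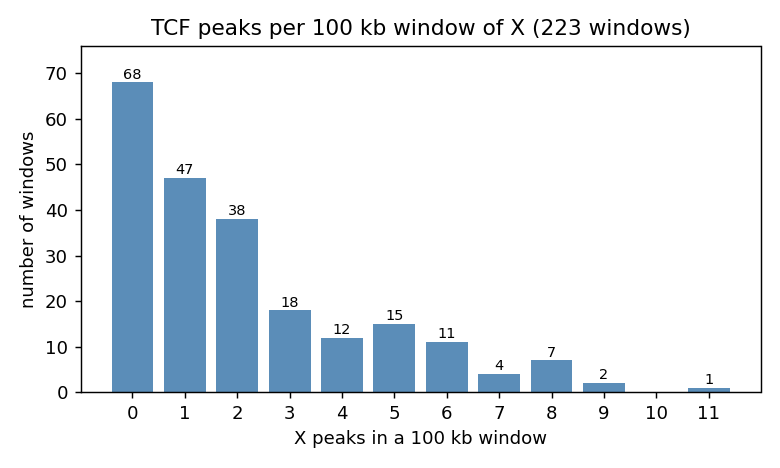
Number of 100 kb windows of X (vertical) by the number of peaks whose midpoint they hold (horizontal), over 223 windows. The bar at 0 holds 68 windows, counts fall off towards a single window with 11 peaks, and no window holds 10.

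In this list, the share of single peaks was higher on X than on each other arm, a difference that was not tested. Single peaks were 29.0% of the peaks on 2L, 30% on 2R, 29.6% on 3L, 30.2% on 3R and 20.7% on chromosome 4, against 48.2% on X. Groups of at least 5 held 27.2%, 27.9%, 26.1%, 31.1% and 46.7% of the peaks on these 5 arms, against 3.97% on X. The share in groups of 2 to 4 on X, 47.8%, was nearer to the 42.2% on the 4 large autosomal arms together. The largest group had 9 peaks on X, between 15 and 44 on the large autosomal arms and 16 on chromosome 4. Peaks per Mb also differed, at 21.5 on X, between 38.4 and 42.7 on the large autosomal arms and 107.7 on chromosome 4. Of the large autosomal arms, 3R had the fewest peaks per Mb, 38.4, and the largest share in groups of at least 5, 31.1%. The part of peak density in the shares was not tested. With gaps of up to 10000 bp allowed on X, 35.1% of its peaks were single and 16.1% lay in groups of at least 5. The large autosomal arms together had 29.7% and 28.1% at 5000 bp, and 18.7% and 44.3% at 10000 bp. Within groups, the median gap was 1128 bp on X and 796 bp on the large autosomal arms.

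**Figure D5:**
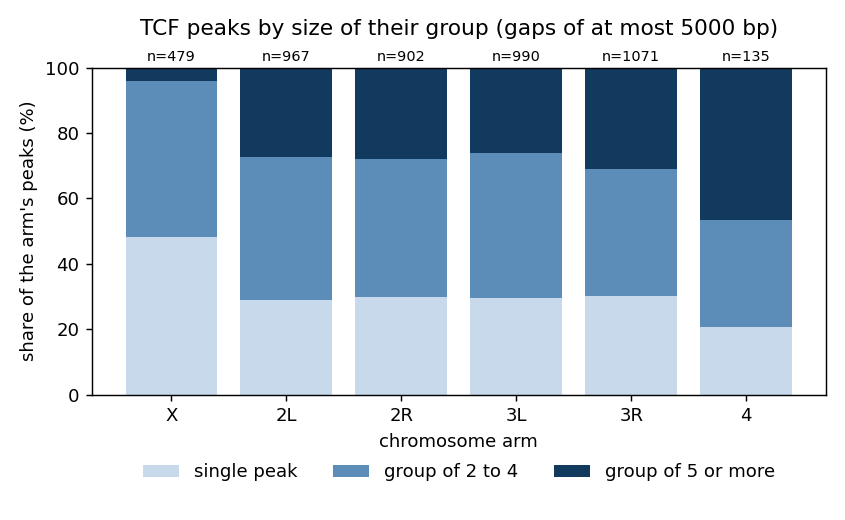
Share of each arm's peaks (vertical, percent) that are single, in a group of 2 to 4 or in a group of 5 or more, with the number of peaks above each bar. The dark part for groups of 5 or more is 3.97% on X and between 26.1% and 46.7% on the other arms.

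Widths on X lacked the far upper end seen on some autosomal arms. The widest X peak, 3820 bp, compares with widest peaks of 14739 bp on 2L, 6085 bp on 2R, 20376 bp on 3L, 5416 bp on 3R and 6028 bp on chromosome 4. Peaks over 2000 bp were 1.88% of X peaks, 4.02% of those on the 4 large autosomal arms and 1.48% of those on chromosome 4. The middle of the distribution was alike, with quartiles of 321 and 802 bp on X and 309 and 880.5 bp on those arms. These arm values were set side by side with no test, because peaks of 1 list are not replicates.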

How the data were processed

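For both ChIP libraries and both input libraries, 1 peak list was deposited, and no column of it names a sample. Per the file headers it is on FlyBase release 5 with MACS as its source. The tools named, per the submitters' processing notes, are BWA, MACS2 and CASAVA (1.7.0.2 and 1.7.0.3), and the build is BDGP5. Their roles, the threshold and any pooling of replicates are not given in the sources used. The score and the peak bounds are as the authors deposited them. Width is end minus start plus 1. A window holds the peaks whose midpoint lies in it, up to the end of the last X peak. The expected pileup was fitted on all 4589 scores, of which 4345 (94.7%) matched a step within 0.01, against 21.2% for the best other value at least 1% away. A pileup counts the tail at or above it. No values per library were analysed, so depth is unknown. Sequence and gene annotation of release 5 were not used here, so motifs and genes were not examined. Named regions are the 10 highest scores, the 10 widest peaks, the largest groups, the longest stretches and the fullest windows. The regions and groupings were chosen with earlier results of these data known. The code was tested on simulated data. Tables were handled with pandas 2.3.3 and NumPy 2.4.6 in Python 3.11.15, intervals came from SciPy 1.17.1, and plots from matplotlib 3.10.9.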

Additional observations from a re-analysis of the deposited data

How the results depend on the processing

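Of 31 values under alternatives, 13 stayed within 1.5 times the main count or within the 95% binomial interval of the main share, median or difference of medians. The 4 differences among them say little, since their intervals were wide (-643 to 241 bp for width, -105.1 to 7.79 for score). These intervals take peaks as independent, though the peaks in groups of at least 5 come from only 3 places, so they are no test. The grouping depends on the gap allowed. Single peaks were 74.7%, 66.2% and 35.1% of X peaks with gaps of at most 1000, 2000 and 10000 bp, against 48.2% at 5000 bp. Groups of at least 5 numbered 0, 1 and 13, against 3, and held 0%, 1.04% and 16.1% of the peaks, against 3.97%. Keeping the 50% of X peaks with the higher score left 240 peaks in 197 groups, with 66.2% single, 0 groups of at least 5 (0% of peaks) and 105 windows of 100 kb without a peak. By construction it raised the median score to 38.36, the median width to 769.5 bp and the median fold to 2.90. Merging peaks closer than 200 bp left 455 peaks, and the median width was then 533 bp. Counting the pileup from the tail above it gave a median fold of 2.22. The difference in median width between single peaks and those in groups of at least 5, -219 bp, ranged from -190 to -164 bp at gaps of 2000 and 10000 bp. That in score, -0.72, was -0.72 and -2.37. Neither had a value at 1000 bp or with the higher-scoring peaks, where no group of 5 was left. No paired analysis was possible because each peak has 1 score and none per library, and so no replicate could be left out either. The planned look at motifs and nearest genes was not run.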

Other observations

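A few X peaks depart from the usual course of score with width. They were picked out after their values were seen. Of the 77 X peaks wider than 1000 bp, 3 scored below the X median of 19.37. The peak at 4833223 to 4834748 spanned 1526 bp with a score of 13.08 and an implied fold of 1.99. The peak at 530463 to 531706 spanned 1244 bp at 2.08-fold, and that at 18204630 to 18206096 spanned 1467 bp at 2.2-fold. These are long, shallow stretches of signal.

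At the opposite side, 7 of the 55 X peaks with a score of at least 100 were narrower than 800 bp. The narrowest was 1755684 to 1756265, with 582 bp, a score of 161.34 and 5.65-fold, and it was a single peak. The highest of the 7 was 8338234 to 8338958, with 725 bp, a score of 218.14 and 6.65-fold, in a group of 3. Another single peak, 7870835 to 7871624, reached 6.26-fold over 790 bp. One more, 17475717 to 17476481, reached 6.12-fold over 765 bp and followed the eighth strongest X peak within its group.

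With gaps of up to 10000 bp allowed, 13 places on X held at least 5 peaks. The fullest was 9004354 to 9033200 with 10 peaks over 28.8 kb. Chains of 7 peaks lay at 8783937 to 8802527 and at 662137 to 675562. Their best scores were 144.32 and 48.06. Of 6 peaks each were the chains at 17387709 to 17412794, 8549866 to 8577215 and 18179317 to 18206096, with best scores of 361.36, 116.17 and 116.17.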
